A study of Mus musculus with 9 samples.

Results

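Long noncoding RNA (lncRNA) genes were followed in splenic CD4+ T cells of C57BL/6 mice that had received Compound 10 or its vehicle DMSO and were then stimulated or left alone. The members were all genes that GENCODE release M21 types as lincRNA, antisense, sense_intronic, sense_overlapping, bidirectional_promoter_lncRNA or processed_transcript and whose estimated counts summed to at least 1000 over the 9 libraries. Gas5 and the Snhg genes, which are small nucleolar RNA (snoRNA) hosts, were left out by name, which removed 8 genes. The rule gave 83 members out of 45321 genes with a transcript in the tables, and out of 6400 genes of these types, of which 2762 were listed at 0 in every library. They were 35 lincRNA, 21 processed_transcript, 19 antisense, 5 sense_intronic and 3 bidirectional_promoter_lncRNA genes.

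The members were chosen by their summed level. The members just inside the limit were BC002059 with a sum of 1009.2 counts, Tmem250-ps with 1032.7 and Lncpint with 1049.0, and the genes just outside it were 1700016P03Rik with 984.9, Gm26880 with 982.5 and Gm29261 with 961.7. Of the 83 members, 23 would have summed to under 1000 counts without the group in which they were highest. The GENCODE types were not always borne out by RefSeq, which lists 45 members as lncRNA, 1 as antisense RNA, 2 as pseudogenes and 7 as protein-coding, and has no entry under the symbol of the other 28. The 7 were Cct6a, Zswim6, 1810058I24Rik, Tmem134, Ifi30, Gm12940 and Tmem250-ps.

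The libraries fell into 4 groups, all from wild-type cells isolated without labelling the CD4+ cells themselves. Comp10_PI (3 libraries) had Compound 10 at 12.5 µM for 1 h and then 10 nM PMA with 1 µM ionomycin for 2 h, and DMSO_PI (2 libraries) had DMSO followed by the same stimulation. Comp10_US (2 libraries) and DMSO_US (2 libraries) had Compound 10 at 12.5 µM or DMSO for 1 h and no stimulus. A further 2 h without stimulus is not recorded for them. Time in culture and under Compound 10 may therefore differ between stimulated and unstimulated groups. If so, it cannot be told apart from stimulation. PMA activates protein kinase C and ionomycin raises cytosolic calcium, so together they bypass the T cell receptor. The series concerns small-molecule inhibition of the NFAT:AP-1 complex, in which the calcium-driven factor NFAT and the AP-1 dimer bind DNA side by side. The age of the mice is not in the labels, and neither is whether replicate libraries stem from different mice or from different dishes. The p-values therefore reflect spread among the libraries at hand, some or all of which could be technical.

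lncRNAs are transcripts without a known protein product that act, where a function is known, as scaffolds of nuclear bodies, as silencers of chromosomal regions, or as precursors from which microRNAs (miRNAs) and snoRNAs are cut. Many arise from the promoter of a protein-coding gene in the opposite direction, or from within such a gene, and their level can then follow that of the gene beside them. In T cells the miRNA hosts Mir155hg and Mir17hg are known to be switched on by activation, and a miRNA finds its targets mainly by pairing through its seed, the bases 2 to 8 from its 5′ end.

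Of the 83 members, 5 carry genes that GENCODE types as miRNA in their bodies. Their miRNAs are shown because these hosts include Mir155hg, the member with the largest rise with stimulation in DMSO. The 5 hosts hold 11 miRNA genes, of which 10 have a mature sequence in RefSeq, with 19 mature miRNAs and 16 different seeds. The main arm of each is given 5′ to 3′ with the seed in capitals. Mir155hg holds miR-155 and Gm17494 holds miR-760. Dleu2 holds miR-15a and miR-16-1, which share the seed AGCAGCA, and Mir17hg holds the miR-17-92 cluster, in which miR-17 and miR-20a share AAAGUGC, and miR-19a and miR-19b share GUGCAAA. The small RNA gene in Zswim6, Gm22118, is named only.
mmu-miR-155-5p: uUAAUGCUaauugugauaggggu
mmu-miR-17-5p: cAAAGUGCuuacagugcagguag
mmu-miR-20a-5p: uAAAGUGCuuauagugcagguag
mmu-miR-18a-5p: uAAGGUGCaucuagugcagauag
mmu-miR-19a-3p: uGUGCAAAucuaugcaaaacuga
mmu-miR-19b-3p: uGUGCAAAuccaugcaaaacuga
mmu-miR-92a-3p: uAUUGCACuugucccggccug
mmu-miR-15a-5p: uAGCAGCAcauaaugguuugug
mmu-miR-16-5p: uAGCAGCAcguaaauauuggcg
mmu-miR-760-3p: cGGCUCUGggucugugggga
The sequences are from RefSeq (GRCm38.p6), and the mature miRNAs themselves were not measured here.

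The libraries held 10669821 to 21852830 estimated counts, of which the 83 members took 0.469% to 0.736%. Nuclear ribosomal RNA took 1.79% to 26.5% of the counts, with the highest shares in DMSO_US replicate 2 (26.5%) and DMSO_PI replicate 2 (13.9%). The summed level of 8 CD4+ T cell markers was 2274 to 2434 CPM (counts scaled to library size with TMM factors) in Comp10_PI, 1575 to 2036 in DMSO_PI, 1303 to 1493 in Comp10_US and 797 to 913.5 in DMSO_US. Markers of B cells summed to 432 to 901 CPM over all libraries, 5 natural killer cell markers to 17.6 to 23.8 CPM in Comp10_PI and 5.90 to 7.91 CPM in DMSO_PI, and CD8, myeloid, neutrophil and erythroid lists to at most 52.1 CPM each, with Fcgr1 at 0 throughout. All 4 tested natural killer cell markers and 6 of the 8 CD4+ markers were higher in Comp10_PI than in DMSO_PI. In bulk RNA, fewer cells of a type and less RNA per cell cannot be told apart.

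All 83 members were among the 14040 genes that remained after genes with few counts were dropped, and were tested with edgeR's quasi-likelihood test, with Benjamini-Hochberg adjustment over all of them and a threshold of 0.05. Stimulation in DMSO raised 19 members and lowered 5, against a background of 14.3% of all tested genes called higher and 13.8% called lower. The median log2 fold change was 0.19 over the members and -0.05 over all tested genes. Stimulation under Compound 10 raised 22 members and lowered 3, against 11.0% of all genes called higher and 10.8% called lower, and the medians were 0.26 for the members and 0.00 for all genes. In stimulated cells, Compound 10 raised 11 members and lowered 6, with 11.7% and 11.4% of all genes called, and medians of 0.13 for the members and 0.00 for all genes. In unstimulated cells, Compound 10 raised 1 member and lowered 3, with 4.44% and 2.9% of all genes called (7.34% in either direction), and medians of 0.01 for the members and -0.01 for all genes. The members were selected for level, and the 23 that reached 1000 counts only through their highest group gave 6 higher and 0 lower calls with stimulation in DMSO and 5 and 0 under Compound 10. The other 60 gave 13 higher and 5 lower in DMSO and 17 and 3 under Compound 10, with medians of 0.20 and 0.26. For Compound 10 these 60 gave 10 higher and 4 lower calls under stimulation, and 1 higher and 2 lower without it. Because of this selection, the counts and medians beside those of all genes are a description only.

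Of the 83 members, 38 were called in at least 1 comparison and 45 in none. The share of all tested genes called in at least 1 comparison was not counted, so the 38 are a description only. Called or not, 46 of the 83 members had libraries that did not overlap between the groups with stimulation in DMSO, where 63.3% of all tested genes did not, and 41 with stimulation under Compound 10, where 49.5% did not. With Compound 10 the members without overlap were 37 in stimulated cells and 45 in unstimulated cells, beside 47.4% and 55.4% of all genes. Among the members called, only Gm43305 had overlapping libraries, with stimulation under Compound 10. The median standard error of a member's log2 fold change lay between 0.28 and 0.31 in these 4 comparisons, so changes well under 2-fold were often not detectable. The 4 comparisons share libraries in pairs, so each member's values are given side by side below without a measure of likeness between comparisons.

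**Figure D1:**
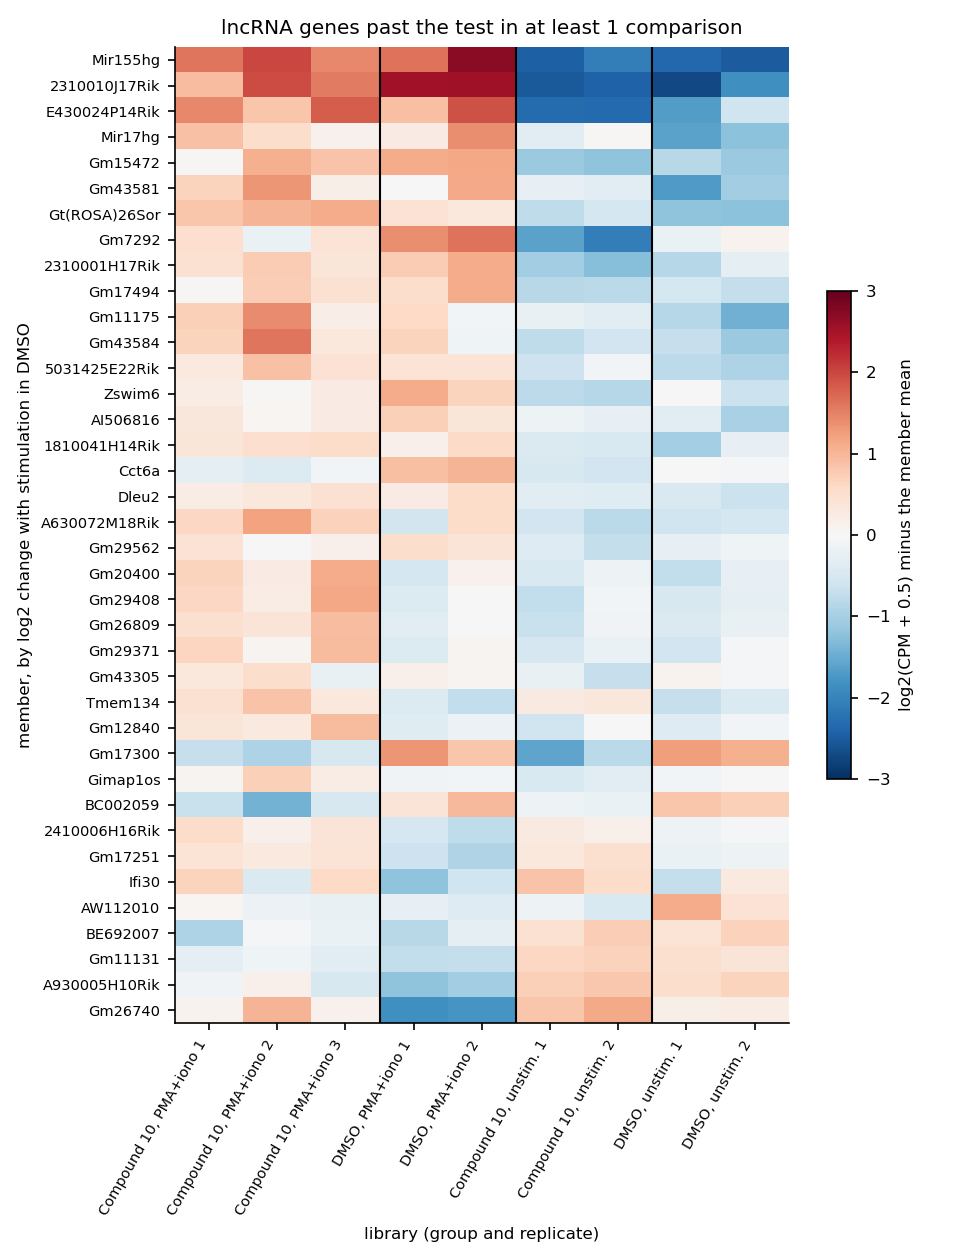
Level of the 38 members called in at least 1 comparison, in each of the 9 libraries, as log2(CPM + 0.5) minus the mean of that member over the libraries (colour scale, -3 to 3). Members run from the largest rise with stimulation in DMSO (Mir155hg, log2 fold change 5.35) to the largest fall (Gm26740, -2.18), and groups run from Comp10_PI at the left to DMSO_US at the right.

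Single libraries moved some of these counts. For Compound 10 in stimulated cells, 11 members in place of 17 were called without Comp10_PI replicate 3, and likewise 11 without DMSO_PI replicate 1. For Compound 10 in unstimulated cells, 2 in place of 4 were called without Comp10_US replicate 1, without Comp10_US replicate 2 or without DMSO_US replicate 1, and 9 without Comp10_PI replicate 2. With stimulation under Compound 10, 15 and 13 in place of 25 were called without Comp10_US replicate 1 and replicate 2. An alternative added after the data were seen left out the 2 DMSO libraries richest in ribosomal RNA, which left 1 library in each DMSO group. In calls lost under it, here and below, ribosomal RNA and lost replication cannot be told apart. Leaving out 1 library of a group of 2 likewise left 1 in that group. Of the 70 calls of single members, 28 held under every alternative tried, and limma on the deposited TPM ended 37 of the 70, more than any other alternative.

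All 5 miRNA hosts were called higher with stimulation in DMSO and 4 of 5 under Compound 10, beside 14.3% and 11.0% of all tested genes, with median log2 fold changes of 1.51 and 1.01. Mir17hg was among the members that reached 1000 counts only through their highest group. Mir155hg (chr16:84703167-84715245, plus strand, GRCm38), whose miR-155 is needed for normal T cell responses, had 22.0, 28.9 and 19.5 CPM in Comp10_PI and 22.4 and 47.8 CPM in DMSO_PI, against 0.844 and 1.26 CPM in Comp10_US and 0.937 and 0.806 CPM in DMSO_US. Every stimulated library stood above every unstimulated one. The log2 fold change with stimulation was 5.35 ± 0.43 (SE, adjusted p = 5.23e-06, 40.7-fold) in DMSO and 4.45 ± 0.40 (adjusted p = 1.61e-05, 21.8-fold) under Compound 10. Between Comp10_PI and DMSO_PI it was -0.58 ± 0.29 and was not called (adjusted p = 0.189). One DMSO_PI library lay inside the Comp10_PI range and the other above it.

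Mir17hg (chr14:115042879-115046727, plus strand), the host of the miR-17-92 cluster that favours lymphocyte growth and survival, had 12.3, 9.51 and 7.07 CPM in Comp10_PI and 7.72 and 17.7 CPM in DMSO_PI, with 5.001 and 6.64 CPM in Comp10_US and 1.80 and 2.45 CPM in DMSO_US. The stimulated groups overlapped, and both Comp10_US libraries lay above both DMSO_US libraries. The rise with stimulation was called in DMSO (log2 fold change 2.57 ± 0.42, adjusted p = 0.000871, 5.93-fold) and not under Compound 10 (0.72 ± 0.36, adjusted p = 0.184). The difference between these responses, tested as an interaction, was -1.84 on the log2 scale with an adjusted p of 0.133, so it did not pass.

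Dleu2 (chr14:61602839-61682373, minus strand), whose miR-15a and miR-16-1 restrain Bcl2, had 67.6, 71.0 and 78.7 CPM in Comp10_PI and 68.5 and 83.8 CPM in DMSO_PI, against 45.1 and 44.8 CPM in Comp10_US and 41.8 and 36.7 CPM in DMSO_US. It rose 1.94-fold in DMSO (log2 fold change 0.95 ± 0.18, adjusted p = 0.00193) and 1.61-fold under Compound 10 (0.69 ± 0.17, adjusted p = 0.0107). The call under Compound 10 was lost without Comp10_US replicate 1 (adjusted p = 0.0793) or replicate 2 (0.0873), and the call in DMSO without both DMSO libraries richest in ribosomal RNA (0.0874) and with limma on TPM (0.0522). Gm17494 (chr3:122255958-122293720, minus strand), which holds miR-760 and overlaps Gclm on the other strand, had 16.4, 27.0 and 22.0 CPM in Comp10_PI and 23.5 and 35.4 CPM in DMSO_PI, against 8.73 and 8.94 CPM in Comp10_US and 11.0 and 9.63 CPM in DMSO_US. Its log2 fold change with stimulation was 1.51 ± 0.27 in DMSO (adjusted p = 0.00144) and 1.30 ± 0.26 under Compound 10 (adjusted p = 0.00327). Both calls were lost with limma on TPM (0.125 and 0.406), and that in DMSO also without both DMSO libraries richest in ribosomal RNA (0.0869). Gclm, a subunit of the enzyme that starts glutathione synthesis, was not called with stimulation in DMSO (0.03 ± 0.19, adjusted p = 0.931).

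Zswim6 (chr13:107724617-107890064, minus strand), protein-coding in RefSeq, was the only miRNA host called with Compound 10. It had 42.4, 37.4 and 43.5 CPM in Comp10_PI and 79.3 and 58.5 CPM in DMSO_PI, with 20.9 and 19.8 CPM in Comp10_US and 36.1 and 23.2 CPM in DMSO_US. The 3 Comp10_PI libraries lay below both DMSO_PI libraries (log2 fold change -0.75 ± 0.21, adjusted p = 0.0203). This call was lost without DMSO_PI replicate 1, the higher of the DMSO_PI pair (adjusted p = 0.202), and with limma on TPM (0.181). The rise with stimulation was 2.33-fold in DMSO (adjusted p = 0.00206) and 2.02-fold under Compound 10 (adjusted p = 0.00571), both of which were lost with limma on TPM (0.101 and 0.262), and the second also without Comp10_US replicate 2 (0.062).

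Of a list of 56 lncRNA genes with well-described functions, 49 were in the tables, 25 were tested and 12 were members. Of these 12, Dleu2 alone was called in any comparison. It was called with stimulation in DMSO and under Compound 10, beside 28.1% and 21.8% of all tested genes. With Compound 10, 0 of the 12 were called in stimulated or unstimulated cells, beside 23.0% and 7.34%. A missing call is not a lack of change. With Compound 10 in stimulated cells, standard errors were 0.61 for Neat1 and 0.60 for Gm26917. The 12 include Gm26917 and Gm42418, of which Gm42418 overlaps a ribosomal RNA gene. Among tested genes of the list below the summed-count limit, Dancr, 2900097C17Rik and Gm14005 were called higher with stimulation in DMSO (adjusted p = 0.0293, 0.000904 and 0.00991). Malat1 (chr19:5795690-5802672, minus strand), a component of nuclear speckles, had mean levels of 1968, 1473, 2215 and 2163 TPM (a level per length, scaled within each library) in Comp10_PI, DMSO_PI, Comp10_US and DMSO_US. It had 407, 2058 and 1095 CPM in Comp10_PI and 1061 and 799 CPM in DMSO_PI, and 304 and 1844 CPM in Comp10_US and 1334 and 832.5 CPM in DMSO_US. The groups overlapped, and the standard error of its log2 fold changes was 0.92 to 1.00.

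Neat1 (chr19:5824708-5845478, minus strand), the scaffold of paraspeckles, had 21.5, 15.5 and 23.6 CPM in Comp10_PI, 7.24 and 25.5 CPM in DMSO_PI, 25.1 and 30.5 CPM in Comp10_US, and 20.6 and 58.2 CPM in DMSO_US. Its highest library was DMSO_US replicate 2, the library with the most ribosomal RNA, and the part of ribosomal RNA in this was not tested. Xist, which silences the inactive X chromosome, had 97.0 to 151 CPM in Comp10_PI, 140 and 181.5 CPM in DMSO_PI, 140 and 146 CPM in Comp10_US and 180 and 217 CPM in DMSO_US, and was called in no comparison. Its antisense partner Tsix overlaps its exons, and since the tables do not record strand, reads of this and other overlapping pairs cannot be told apart. The imprinted silencer Kcnq1ot1 ranged from 35.4 CPM in a Comp10_US library to 87.8 CPM in a DMSO_PI library, and Tug1 from 17.99 CPM in a Comp10_US library to 33.7 CPM in a DMSO_PI library, and neither was called in any comparison.

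Zfas1, a snoRNA host, had 19.1, 13.2 and 50.9 CPM in Comp10_PI, 13.8 and 15.2 CPM in DMSO_PI, 16.0 and 15.6 CPM in Comp10_US and 34.3 and 18.8 CPM in DMSO_US. Single libraries in 2 groups stood apart from their replicates, and nothing was called. Gm26905, of whose words 65.6% occur in Gm37158, had 59.4 to 118 CPM and was not called. Lncpint, a p53-induced RNA, and Mirt1 were present at 4.48 to 12.2 CPM and 4.70 to 11.7 CPM over the 9 libraries. Gm26917 and Gm42418, which lie close together on chromosome 17 and of which Gm42418 overlaps a ribosomal RNA gene, were highest in DMSO_US replicate 2, at 1476 and 438 CPM, and the part of ribosomal RNA in this was not tested. Gm15564 was highest in the same library, at 481 CPM, and had 108 to 371 CPM in the others. In the other libraries Gm26917 had 152 to 820 CPM and Gm42418 had 75.4 to 207 CPM.

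**Figure D2:**
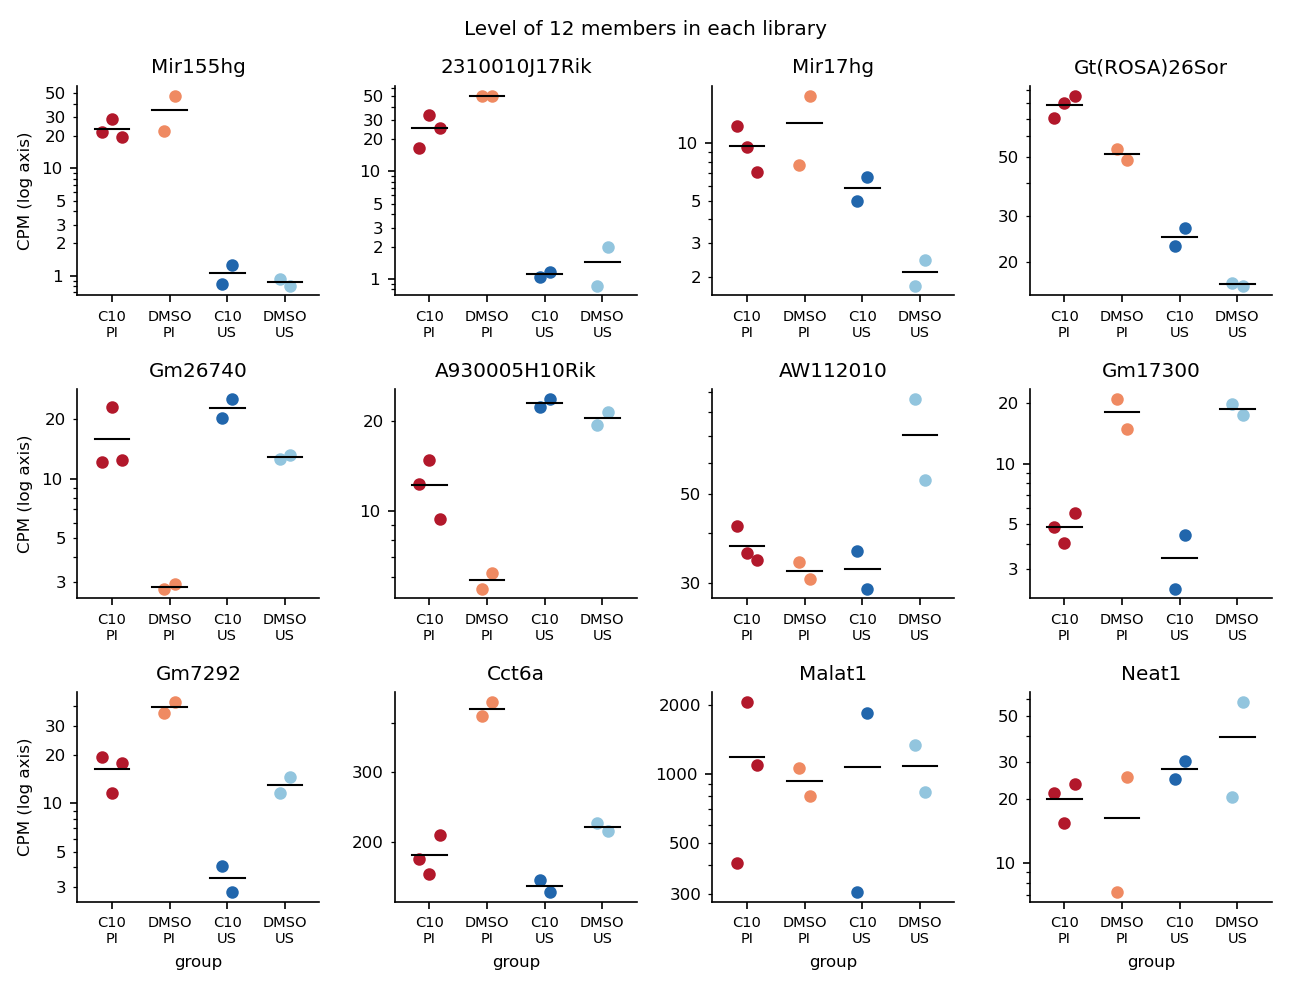
Level of 12 members in CPM (log axis) in each library, with 1 point per library and a black line at the group mean, for Comp10_PI, DMSO_PI, Comp10_US and DMSO_US from left to right. Mir155hg and 2310010J17Rik separate stimulated from unstimulated libraries, Gm17300 separates Compound 10 from DMSO in both states, Gm26740 is low only in DMSO_PI, and the libraries of Malat1 spread within every group.

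Among members that start beside or lie within protein-coding genes, 2310010J17Rik had the largest log2 fold changes with stimulation, and under Compound 10 its rise was the largest of all members called. It is transcribed away from Picalm, a clathrin assembly factor, with starts 229 bases apart on chromosome 7 (chr7:90124822-90129984, minus strand). 2310010J17Rik had 16.4, 33.7 and 25.5 CPM in Comp10_PI and 50.4 and 51.0 CPM in DMSO_PI, against 1.04 and 1.16 CPM in Comp10_US and 0.865 and 2.00 CPM in DMSO_US. Stimulated libraries stood above all unstimulated ones, and the 3 Comp10_PI libraries below both DMSO_PI libraries. The log2 fold change with stimulation was 5.12 ± 0.41 in DMSO (adjusted p = 4.84e-06, 34.8-fold) and 4.51 ± 0.40 under Compound 10 (adjusted p = 1.43e-05, 22.7-fold). Compound 10 in stimulated cells gave -1.005 ± 0.29 (adjusted p = 0.025), a call that was lost without Comp10_PI replicate 1 (adjusted p = 0.0613) or replicate 3 (0.0742) and without DMSO_PI replicate 1 (0.104) or replicate 2 (0.111).

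Picalm was called in DMSO and with Compound 10 in stimulated cells, in the same directions as 2310010J17Rik. It had 29.7, 36.3 and 32.1 CPM in Comp10_PI and 126 and 50.6 CPM in DMSO_PI, against 27.5 and 25.97 CPM in Comp10_US and 30.4 and 26.4 CPM in DMSO_US. Its log2 fold change was 1.64 ± 0.34 with stimulation in DMSO (adjusted p = 0.00456), 0.29 ± 0.31 with stimulation under Compound 10 (adjusted p = 0.566) and -1.43 ± 0.30 with Compound 10 in stimulated cells (adjusted p = 0.00587). The promoter of 2310010J17Rik is shown because it lies between these oppositely directed genes. It is a RefSeq window of 250 bases before to 50 bases after the start (chr7:90129887-90130186, minus strand, GRCm38.p6), whose start lies 48 bases from that of GENCODE. The promoter of Gm26740 (chr10:22302789-22303088, minus strand) is shown beside it because this member is low in DMSO_PI only. Capitals mark the NFAT core GGAAA or its reverse complement TTTCC.
2310010J17Rik: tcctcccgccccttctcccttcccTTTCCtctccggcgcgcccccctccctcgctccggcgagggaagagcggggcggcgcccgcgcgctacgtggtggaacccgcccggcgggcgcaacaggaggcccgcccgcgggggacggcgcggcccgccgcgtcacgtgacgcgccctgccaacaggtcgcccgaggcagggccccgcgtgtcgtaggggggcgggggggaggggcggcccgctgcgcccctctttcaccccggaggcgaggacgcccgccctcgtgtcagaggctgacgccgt
Gm26740: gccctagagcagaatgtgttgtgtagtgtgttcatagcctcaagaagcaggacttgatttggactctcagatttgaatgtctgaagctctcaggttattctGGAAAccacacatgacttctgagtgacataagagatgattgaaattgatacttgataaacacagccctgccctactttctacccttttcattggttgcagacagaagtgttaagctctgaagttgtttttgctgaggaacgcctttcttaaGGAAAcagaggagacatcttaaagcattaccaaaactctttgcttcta
The first window holds 1 such core, 222 to 226 bases before the start, and the second holds 2, of which 1 lies just after the start. GGAAA on either strand occurs in 61.3% of the 32851 RefSeq promoter windows of this length. Neither window holds the AP-1 site TGANTCA, found in 7.81% of all windows, nor the CRE site TGACGTCA, found in 1.79%. Of the 83 members, 42 matched 57 promoter windows, of which 38 (66.7%) had GGAAA, 5 (8.77%) had TGANTCA and none had TGACGTCA. These matches describe the letters only.

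Gm15472 and Gm43581 lie inside introns on the same strand as their host genes, and each pair was called higher with stimulation in DMSO. Both members reached 1000 counts only through their highest group, so their calls are not independent of that choice. Gm15472 (chr3:103863166-103864423, plus strand) lies in Ptpn22, a phosphatase that restrains T cell receptor signalling. It had 8.25, 17.3 and 14.9 CPM in Comp10_PI and 17.9 and 18.5 CPM in DMSO_PI, against 3.44 and 3.16 CPM in Comp10_US and 4.25 and 3.42 CPM in DMSO_US. Its log2 fold change with stimulation was 2.25 ± 0.33 in DMSO (adjusted p = 0.000334) and 2.03 ± 0.31 under Compound 10 (adjusted p = 0.000636), beside 2.83 ± 0.22 (adjusted p = 2.94e-06) and 3.00 ± 0.21 (adjusted p = 2.11e-06) for Ptpn22. Reads of unspliced Ptpn22 RNA and of Gm15472 cannot be told apart in these counts.

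Gm43581 (chr3:104642994-104645857, plus strand) lies in Slc16a1, a lactate transporter. It had 11.5, 18.2 and 8.03 CPM in Comp10_PI and 7.10 and 15.9 CPM in DMSO_PI, against 5.84 and 5.54 CPM in Comp10_US and 1.80 and 3.16 CPM in DMSO_US. It was called higher with stimulation in DMSO (2.20 ± 0.48, adjusted p = 0.00583), as was Slc16a1 (1.40 ± 0.40, adjusted p = 0.0268), and neither was called under Compound 10. Without DMSO_US replicate 1, which had the lowest value, the adjusted p of Gm43581 was 0.0552. The other 3 sense_intronic members were called in no comparison with stimulation.

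E430024P14Rik (chr17:7881106-7946426, minus strand) overlaps exons of Tagap, a GTPase-activating protein of activated T cells, on the opposite strand. It falls outside the rule that chose the named members, because its mean level is low, and was named after its values were seen. It also reached 1000 counts only through its highest group. It had 16.7, 10.8 and 21.7 CPM in Comp10_PI and 11.3 and 23.3 CPM in DMSO_PI, against 0.772 and 0.748 CPM in Comp10_US and 1.46 and 3.69 CPM in DMSO_US. Its log2 fold change with stimulation was 4.38 ± 0.55 under Compound 10 (adjusted p = 0.000329, 20.9-fold) and 2.74 ± 0.49 in DMSO (adjusted p = 0.00236, 6.68-fold). Tagap itself changed by 5.26 ± 0.33 and 3.97 ± 0.32 in the same comparisons, at levels of 1055 to 1656 CPM in Comp10_PI and 1457 and 1568 CPM in DMSO_PI.

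Over the 53 members with a tested protein-coding neighbour, the member's and the neighbour's log2 fold changes had a Spearman correlation of 0.55 with stimulation in DMSO and 0.39 under Compound 10. The correlation was 0.27 with Compound 10 in stimulated cells and 0.37 in unstimulated cells. In the 24 pairs whose member overlaps no other exon, it was 0.67 with stimulation in DMSO, 0.32 with stimulation under Compound 10, 0.29 with Compound 10 in stimulated cells and 0.57 in unstimulated cells. These are descriptions across genes measured in the same libraries, many of which share sequence. Of 17 such members called with stimulation in DMSO, 6 had a neighbour called in the same direction and 1 had one called in the opposite direction. The other 10 had a neighbour that was not called. Of all tested genes, 14.3% were called higher and 13.8% lower in this comparison, so these counts are a description only.

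**Figure D3:**
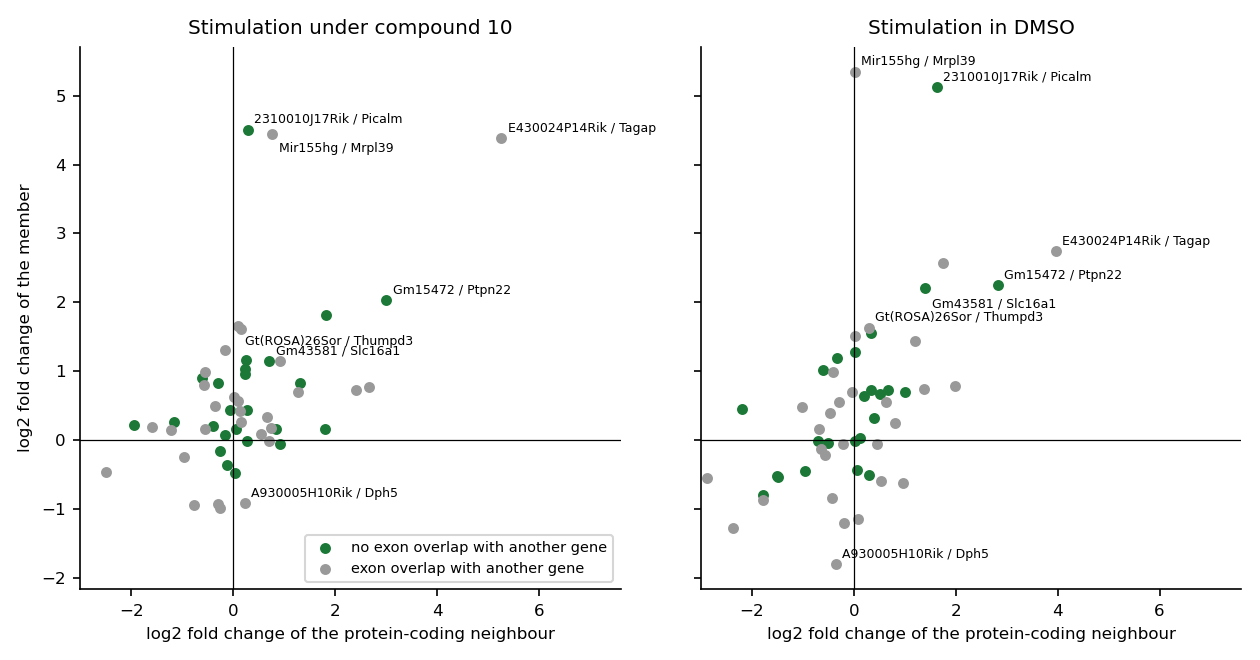
Log2 fold change with stimulation of 53 members (vertical axis) against that of their protein-coding neighbour (horizontal axis), under Compound 10 at the left and in DMSO at the right. Green points are members with no exon overlap with another gene and grey points have such an overlap. E430024P14Rik/Tagap and Gm15472/Ptpn22 are high on both axes. Mir155hg lies near 0 for its neighbour Mrpl39 in DMSO (0.02), and at 0.77 under Compound 10, where Mrpl39 was called higher (adjusted p = 0.0222).

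Other members did not follow their neighbour. Gt(ROSA)26Sor (chr6:113067428-113077333, minus strand), the RNA of the Rosa26 locus that is widely used as a transgene docking site, had 70.1, 80.4 and 85.6 CPM in Comp10_PI and 53.5 and 48.8 CPM in DMSO_PI, against 23.0 and 27.0 CPM in Comp10_US and 16.7 and 16.3 CPM in DMSO_US. It was the only member that rose with stimulation in DMSO and again with Compound 10 in stimulated cells. The log2 fold changes with stimulation were 1.66 ± 0.17 under Compound 10 (adjusted p = 4.27e-05) and 1.63 ± 0.18 in DMSO (adjusted p = 5.34e-05). With Compound 10 it was 0.62 ± 0.16 in stimulated cells (adjusted p = 0.0167), a call that was lost without Comp10_PI replicate 3 (0.0653) and without DMSO_PI replicate 1 (0.051) or replicate 2 (0.114). Thumpd3, a transfer RNA methyltransferase gene that overlaps it on the other strand, fell by 0.64 ± 0.17 in the same comparison (adjusted p = 0.0172).

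Cct6a is protein-coding in RefSeq (a subunit of the chaperonin that folds actin and tubulin), although GENCODE M21 types it as processed_transcript, and it holds 2 snoRNA genes. It had 181, 166.5 and 209 CPM in Comp10_PI and 417 and 452 CPM in DMSO_PI, with 160.2 and 149.5 CPM in Comp10_US and 224 and 213 CPM in DMSO_US. With Compound 10 it was 2.34-fold lower in stimulated cells (log2 fold change -1.23 ± 0.17, adjusted p = 0.000382), and with stimulation in DMSO it was 1.99-fold higher (adjusted p = 0.002), a call that was lost with limma on TPM (0.354) and without both DMSO libraries richest in ribosomal RNA (0.0568). Psph, an enzyme of serine synthesis on the other strand, rose by 1.12 ± 0.18 with Compound 10 in stimulated cells (adjusted p = 0.000833).

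Of the 5 snoRNA hosts among the members, 2 were called with Compound 10 in stimulated cells, in opposite directions, and 2 rose with stimulation in DMSO. Of all tested genes, 23.0% were called in either direction and 14.3% were called higher in these comparisons. 2410006H16Rik, which holds 3 snoRNA genes and lies 77 bases from Lrrc75a, had 139, 105 and 124 CPM in Comp10_PI against 66.7 and 55.4 CPM in DMSO_PI. It had 114 and 106 CPM in Comp10_US and 84.9 and 91.7 CPM in DMSO_US. Its log2 fold change between Comp10_PI and DMSO_PI was 1.005 ± 0.18 (adjusted p = 0.00174; 0.0502 with limma on TPM), and that of Lrrc75a was 1.72 ± 0.33 (adjusted p = 0.00282). AI506816 counts as a snoRNA host only through Mir3096, which GENCODE types as snoRNA although its symbol is that of a miRNA gene. AI506816 rose 2.28-fold with stimulation in DMSO (adjusted p = 0.00208), with 102 and 80.0 CPM in DMSO_PI against 48.8 and 31.4 CPM in DMSO_US.

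With stimulation in DMSO, 5 members were called lower. Gm26740 (chr10:22187013-22302835, minus strand) spans Raet1e, a ligand gene of the natural killer receptor NKG2D, on the other strand without exon overlap. It had 12.2, 23.1 and 12.4 CPM in Comp10_PI and 2.77 and 2.92 CPM in DMSO_PI, with 20.4 and 25.5 CPM in Comp10_US and 12.7 and 13.2 CPM in DMSO_US. The 2 DMSO_PI libraries were the lowest of all 9. Gm26740 fell by 2.18 ± 0.33 on the log2 scale with stimulation in DMSO (adjusted p = 0.000429, 4.53-fold lower), while under Compound 10 the value was -0.52 ± 0.27 (adjusted p = 0.193). In stimulated cells Compound 10 raised it 5.58-fold (2.48 ± 0.31, adjusted p = 0.00024), the largest called rise among the members, and this call held in every alternative. The 4 natural killer cell markers tested also rose in this comparison, and their part in the result was not tested. The interaction of Gm26740 was 1.66 with an adjusted p of 0.0922.

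A930005H10Rik, on the opposite strand of Dph5, had 12.3, 14.9 and 9.40 CPM in Comp10_PI and 5.48 and 6.22 CPM in DMSO_PI, with 22.4 and 23.9 CPM in Comp10_US and 19.5 and 21.4 CPM in DMSO_US. It fell with stimulation in DMSO (-1.80 ± 0.24, adjusted p = 0.000201) and under Compound 10 (-0.92 ± 0.21, adjusted p = 0.00824), and Compound 10 raised it in stimulated cells (1.06 ± 0.23, adjusted p = 0.00536). The fall under Compound 10 was lost without Comp10_US replicate 2 (0.0685) and with effective length as an offset (0.238). Dph5, an enzyme of diphthamide synthesis, rose by 0.91 ± 0.20 with Compound 10 in stimulated cells (adjusted p = 0.00708). Gm26740 and A930005H10Rik were the 2 members that fell with stimulation in DMSO and were higher with Compound 10 in stimulated cells. The 4 members that rose with stimulation in DMSO and were lower with Compound 10 in stimulated cells were Cct6a, Zswim6, 2310010J17Rik and Gm7292. The DMSO_PI libraries enter these 2 comparisons with opposite sign, so deviant DMSO_PI values alone would give such opposite calls. The share of all genes with these patterns was not counted, and none of these members was called in the interaction.

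AW112010 (chr19:11047612-11055808, minus strand), an RNA that has been described to encode a peptide in mouse macrophages, had 41.6, 35.6 and 34.4 CPM in Comp10_PI and 33.9 and 30.7 CPM in DMSO_PI, with 36.1 and 29.1 CPM in Comp10_US and 86.5 and 54.3 CPM in DMSO_US. Only the DMSO_US libraries were set apart, and they differed from each other. AW112010 was lower with stimulation in DMSO (-1.12 ± 0.23, adjusted p = 0.00334) and with Compound 10 in unstimulated cells (-1.11 ± 0.23, adjusted p = 0.0148). The second call was lost without Comp10_US replicate 1 (0.0691) or replicate 2 (0.128) and without DMSO_US replicate 1 (0.142). Its interaction, 1.31 ± 0.31, had the smallest p of the members (unadjusted p = 0.00119, adjusted p = 0.0722).

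Gm11131, which overlaps the nonclassical class I gene H2-Q4 on the other strand, had 16.7, 18.7 and 16.1 CPM in Comp10_PI and 12.01 and 12.2 CPM in DMSO_PI, against 31.8 and 33.5 CPM in Comp10_US and 28.9 and 27.1 CPM in DMSO_US. It fell 2.31-fold with stimulation in DMSO (adjusted p = 0.000498) and 1.90-fold under Compound 10 (adjusted p = 0.00171), while H2-Q4 was not called (-0.20 ± 0.24 and -0.29 ± 0.22). BE692007, opposite Ms4a6c, had 6.25, 11.6 and 10.6 CPM in Comp10_PI and 6.70 and 9.82 CPM in DMSO_PI, against 16.96 and 20.8 CPM in Comp10_US and 16.4 and 20.02 CPM in DMSO_US. It fell 2.21-fold in DMSO (adjusted p = 0.0142) and 1.98-fold under Compound 10 (adjusted p = 0.0213). Both calls were unstable: the first was lost without DMSO_PI replicate 1 (0.112) or DMSO_US replicate 2 (0.0931), the second without Comp10_PI replicate 1 (0.0547) or either Comp10_US library (0.0558 and 0.16).

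Compound 10 lowered Gm17300 and Gm7292 in stimulated and unstimulated cells alike, and these 4 calls held in every alternative. Gm17300 (chr4:132351772-132353382, plus strand) overlaps exons of Rcc1, the exchange factor of the GTPase Ran, and of the snoRNA host Snhg3 on the other strand, and 51.9% of its 31-base words occur in transcripts of other genes. Gm17300 had 4.87, 4.03 and 5.69 CPM in Comp10_PI against 21.1 and 14.9 CPM in DMSO_PI, and 2.39 and 4.42 CPM in Comp10_US against 19.9 and 17.5 CPM in DMSO_US. All Compound 10 libraries lay below all DMSO libraries in both states. Gm17300 reached 1000 counts only through its highest group, so its calls are not independent of that choice. It was 3.71-fold lower in stimulated cells (log2 fold change -1.89 ± 0.27, adjusted p = 0.000489) and 5.43-fold lower in unstimulated cells (-2.44 ± 0.32, adjusted p = 0.00108). Rcc1 changed by -1.42 ± 0.21 in stimulated cells (adjusted p = 0.000663) and -0.59 ± 0.24 in unstimulated cells (adjusted p = 0.156), and Snhg3 by -0.74 ± 0.18 (adjusted p = 0.0112) and -0.31 ± 0.21 (adjusted p = 0.426). Reads of this locus cannot be assigned to a strand.

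Gm7292 (chr6:117716342-117718868, plus strand) shares 85.9% of its 31-base words with 2900097C17Rik, the mouse Norad gene, whose RNA binds Pumilio proteins. Gm7292 had 19.3, 11.6 and 17.9 CPM in Comp10_PI against 36.1 and 42.5 CPM in DMSO_PI, and 4.06 and 2.80 CPM in Comp10_US against 11.5 and 14.5 CPM in DMSO_US. It was 2.42-fold lower with Compound 10 in stimulated cells (adjusted p = 0.00254) and 3.78-fold lower in unstimulated cells (adjusted p = 0.00296). It rose 4.71-fold with stimulation under Compound 10 (adjusted p = 0.000158) and 3.02-fold in DMSO (adjusted p = 0.00104). With the counts of 2900097C17Rik added, which alone had 0.937 to 7.15 CPM, the values with Compound 10 were -1.24 ± 0.23 (adjusted p = 0.00246) and -1.70 ± 0.28 (adjusted p = 0.00471). 2900097C17Rik alone had -1.051 ± 0.335 with Compound 10 in stimulated cells (adjusted p = 0.0396) and -0.393 ± 0.432 in unstimulated cells (adjusted p = 0.649). With stimulation it rose by 2.405 ± 0.403 in DMSO (adjusted p = 0.000904) and 1.747 ± 0.39 under Compound 10 (adjusted p = 0.00706). Reads of these 2 genes may have been divided between them.

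**Figure D4:**
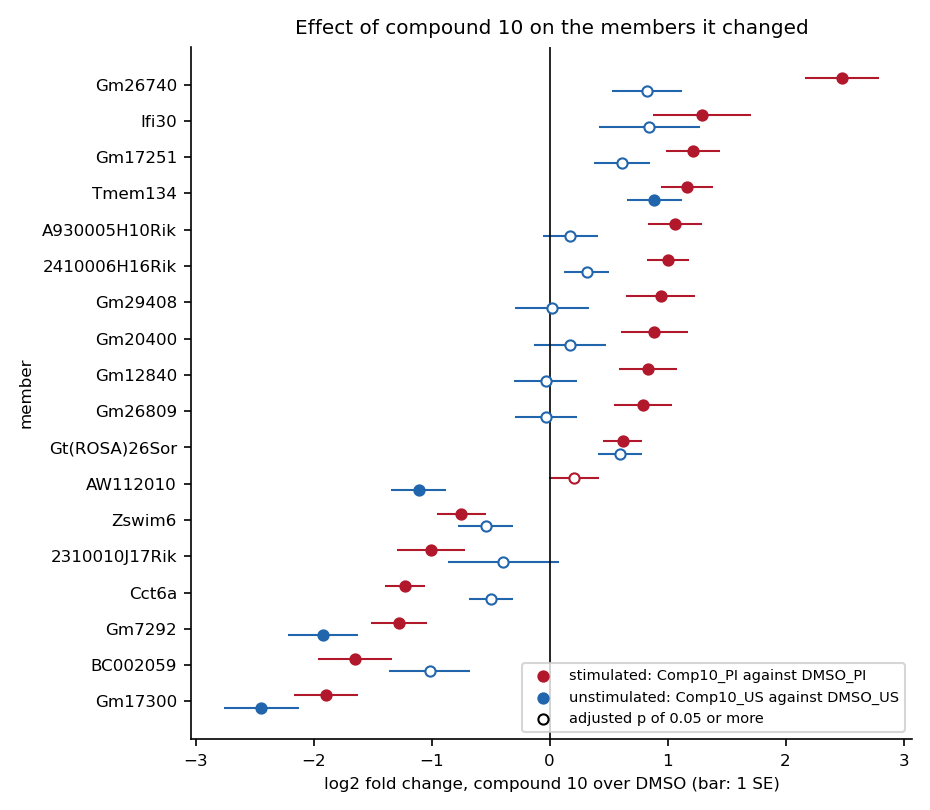
Log2 fold change of Compound 10 over DMSO for the 18 members called in either state, in stimulated cells (red) and unstimulated cells (blue), with bars of 1 SE and open circles where the adjusted p was 0.05 or more. Gm26740 is furthest right at 2.48 in stimulated cells, and Gm17300 is furthest left at -1.89 in stimulated and -2.44 in unstimulated cells.

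Tmem134, protein-coding in RefSeq, was the only member raised in both states. It had 25.8, 34.4 and 23.5 CPM in Comp10_PI against 13.9 and 11.0 CPM in DMSO_PI, and 22.7 and 23.8 CPM in Comp10_US against 11.4 and 13.8 CPM in DMSO_US. It was 2.24-fold higher in stimulated cells (adjusted p = 0.00252) and 1.85-fold higher in unstimulated cells (adjusted p = 0.0401). The second call was lost without either Comp10_US library (0.164 and 0.17), either DMSO_US library (0.226 and 0.115) or Comp10_PI replicate 3 (0.0549).

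Gm17251 and BC002059, which fall outside the rule for named members through their low level and were chosen after their values were seen, also changed with Compound 10 in stimulated cells. Both reached 1000 counts only through their highest group. Gm17251, opposite the recycling endosome GTPase gene Rab11b, had 10.1, 9.17 and 9.93 CPM in Comp10_PI against 4.63 and 3.69 CPM in DMSO_PI (2.32-fold higher, adjusted p = 0.00262). BC002059 had 3.79, 2.02 and 4.35 CPM in Comp10_PI against 8.26 and 12.8 CPM in DMSO_PI (3.14-fold lower, adjusted p = 0.00276; 0.0621 without both DMSO libraries richest in ribosomal RNA). Ifi30, the lysosomal thiol reductase of antigen-presenting cells and protein-coding in RefSeq, had 23.0, 10.5 and 22.1 CPM in Comp10_PI against 5.90 and 9.23 CPM in DMSO_PI. Its adjusted p of 0.0496 was just under the threshold and rose over it when any of several libraries was left out (0.123 and 0.12 without Comp10_PI replicate 1 or 3, 0.266 and 0.097 without DMSO_PI replicate 1 or 2, 0.0679 and 0.0676 without Comp10_US replicate 1 or 2). B cell markers summed to 666 to 901 CPM in Comp10_PI and 432 to 703 CPM in DMSO_PI, overlapping ranges whose part in the level of Ifi30 was not tested.

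Some members share sequence with each other. Gm26809 on chromosome 6, Gm12840 on chromosome 4 and Gm29408 on chromosome 9 share words, with 59.8% of those of Gm12840 and 51.6% of those of Gm29408 found in Gm26809, so the reads of all 3 may have been divided between them. Gm26809 was much the most abundant, with 1303, 1218 and 1777 CPM in Comp10_PI against 735 and 918 CPM in DMSO_PI, and 582 and 862 CPM in Comp10_US against 683 and 791 CPM in DMSO_US. Their summed counts were higher with Compound 10 in stimulated cells (log2 fold change 0.80 ± 0.25, adjusted p = 0.0369) and with stimulation under Compound 10 (0.98 ± 0.25, adjusted p = 0.015). The call of Gm26809 alone with Compound 10 (adjusted p = 0.0359) was lost without Comp10_PI replicate 1 (0.0535) or 3 (0.131) and without DMSO_PI replicate 1 (0.207) or 2 (0.0754).

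Gm20400 and Gm29371 share a few percent of their words with Gm12505. Gm20400 had 66.3, 49.2 and 90.4 CPM in Comp10_PI against 28.5 and 45.5 CPM in DMSO_PI, with 30.04 and 37.2 CPM in Comp10_US and 24.8 and 34.7 CPM in DMSO_US. Gm20400 was called with Compound 10 in stimulated cells (adjusted p = 0.0424), a call lost without Comp10_PI replicate 1 (0.0771) or 3 (0.136), without DMSO_PI replicate 1 (0.271) and without either Comp10_US library (0.0541 each). Gm29371 was called only with stimulation under Compound 10 (1.96-fold, adjusted p = 0.0234), where Gm20400 rose 2.04-fold (adjusted p = 0.0239). Both calls were lost without Comp10_PI replicate 3 or either Comp10_US library, and that of Gm29371 also without Comp10_PI replicate 1 (0.0531).

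Several members lie within or copy protein-coding sequence. All of the 31-base words of Gm11175 occur in Jund, a subunit of AP-1, which it overlaps on the opposite strand, and Gm11175 rose 2.71-fold with stimulation in DMSO (adjusted p = 0.0239) while Jund itself rose by 1.20 ± 0.32 (adjusted p = 0.0162). Summed with Jund the log2 fold change was 1.21 ± 0.33 (adjusted p = 0.0158), and Gm11175 alone was lost without DMSO_PI replicate 1 (0.14) or DMSO_US replicate 2 (0.144). Gm29562 and Gm29084 share 52.3% and 93.8% of their words with Noct, the nocturnin gene, and their counts summed with Noct rose by 0.89 ± 0.24 in DMSO (adjusted p = 0.0163) and 1.005 ± 0.23 under Compound 10 (adjusted p = 0.00758). 5430405H02Rik, opposite the homeobox repressor gene Tgif2, was called in no comparison alone. Tgif2, at 58.6 to 99.9 CPM in Comp10_PI and 86.1 and 75.2 CPM in DMSO_PI, rose by 1.98 ± 0.27 in DMSO (adjusted p = 0.000227) and 1.28 ± 0.25 under Compound 10 (adjusted p = 0.0031). The sum of both rose by 1.67 ± 0.19 (adjusted p = 6.2e-05) and 1.15 ± 0.18 (adjusted p = 0.000705).

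A630072M18Rik, opposite Rsbn1l with 95% of its words in it, had 17.6, 26.6 and 18.4 CPM in Comp10_PI against 7.40 and 6.24 CPM in Comp10_US, and rose 3.07-fold with stimulation under Compound 10 (adjusted p = 0.00422; 0.0549 without Comp10_US replicate 2). Rsbn1l was not called in that comparison (0.15 ± 0.22, adjusted p = 0.693), and the sum of both had 0.60 ± 0.16 (adjusted p = 0.0197). These sums and the other results on shared words were added after the data had been seen. A630072M18Rik reached 1000 counts only through its highest group.

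Gm10076 on chromosome 14, a pseudogene in RefSeq, had mean levels of 1508, 1762, 1863 and 1635 TPM in Comp10_PI, DMSO_PI, Comp10_US and DMSO_US, and was called in no comparison. Per length it lay above Malat1 in 5 of the 9 libraries and below it in 4. It is shown because its level cannot be told apart from that of a ribosomal protein mRNA: bases 42 to 119 of its transcript match a 78-base stretch of Rpl41, on chromosome 10, with 0 mismatches.
Gm10076: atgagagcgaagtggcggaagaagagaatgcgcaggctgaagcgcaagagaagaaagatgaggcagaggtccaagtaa
Rpl41 itself had 1652 to 1836 CPM in Comp10_PI, 1949 and 1802 CPM in DMSO_PI, 1464 and 1332 CPM in Comp10_US and 1193 and 1615 CPM in DMSO_US. AY036118, all of whose words lie in Gm42418 and which overlaps the ribosomal RNA gene at that place, was listed at 784 CPM in Comp10_US replicate 1, at 20.99 CPM in Comp10_PI replicate 1, at 0.0122 CPM in DMSO_PI replicate 2 and at 0 in the other 6 libraries, so it passed the summed-count rule through 1 library.

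The remaining members described here were called with stimulation in 1 or both states. 2310001H17Rik, an RNA between genes whose nearest neighbour is Clec2d, a ligand gene of a natural killer cell receptor, had 12.2, 15.4 and 11.5 CPM in Comp10_PI against 4.06 and 3.34 CPM in Comp10_US, and 15.2 and 19.6 CPM in DMSO_PI against 4.69 and 7.12 CPM in DMSO_US. It rose 3.53-fold under Compound 10 (adjusted p = 0.000508) and 2.94-fold in DMSO (adjusted p = 0.00131, and 0.0673 with limma on TPM). This member reached 1000 counts only through its highest group. Gm43584, which overlaps exons of Fam19a3 on the same strand, rose 3.27-fold under Compound 10 (adjusted p = 0.0126; 0.103 and 0.08 without Comp10_US replicate 1 or 2) and 2.44-fold in DMSO (adjusted p = 0.0472; 0.0546 without Comp10_PI replicate 1, 0.283 without DMSO_PI replicate 1, 0.0697 and 0.0693 without Comp10_US replicate 1 or 2, 0.108 and 0.234 without DMSO_US replicate 1 or 2). Gimap1os, opposite Gimap1, a GTPase gene needed for lymphocyte survival, had 36.0, 56.4 and 40.2 CPM in Comp10_PI against 24.6 and 27.2 CPM in Comp10_US, and 31.7 and 32.3 CPM in DMSO_PI against 32.4 and 34.4 CPM in DMSO_US. It was called with stimulation under Compound 10 (1.70-fold, adjusted p = 0.0174; 0.133 and 0.0816 without Comp10_US replicate 1 or 2), and its interaction had an adjusted p of 0.212.

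No member passed the test of the interaction, that is, of the stimulation response under Compound 10 minus that in DMSO, where 1.03% of all tested genes did. With edgeR, 12 members had an unadjusted p under 0.05. DESeq2 called 3 members and limma on TPM called 0. The 6 members with the smallest p were AW112010, Gm26740, Mir17hg, Cct6a, Gimap1os and A930005H10Rik, with log2 values of 1.31, 1.66, -1.84, -0.73, 0.83 and 0.89. A member called in one state and not in the other is therefore not shown to respond differently.

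When each transcript was tested as its own feature, 159 transcripts of members were among 30059 tested, and 28 members had at least 2. With Compound 10 in stimulated cells, 6 were called higher and 5 lower, against 2.19% and 2.52% of all transcripts. With Compound 10 in unstimulated cells, 0 were called higher and 1 lower, against 0.25% and 0.21% (0.459% in either direction). Stimulation in DMSO raised 18 and lowered 4, against 5.39% and 3.02% (8.41%), and under Compound 10 it raised 12 and lowered 3, against 3.54% and 2.31% (5.85%). In the interaction 0 were called, against 0.00333% of all transcripts higher and 0.00665% lower (0.00998%). Transcript levels within a gene rest on how kallisto divides shared reads.

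Gt(ROSA)26Sor and Gm26740 each had 1 transcript called with Compound 10 in stimulated cells beside another that was not. Gt(ROSA)26Sor-204 had 55.1, 75.2 and 66.7 TPM in Comp10_PI against 30.7 and 23.1 TPM in DMSO_PI (log2 fold change 1.39 ± 0.27, adjusted p = 0.0307). Gt(ROSA)26Sor-201 had 26.5, 30.97 and 28.02 TPM in Comp10_PI against 29.2 and 26.1 TPM in DMSO_PI (0.12 ± 0.15, adjusted p = 0.781). Gm26740-202 had 6.10, 13.7 and 5.36 TPM in Comp10_PI against 1.04 and 1.38 TPM in DMSO_PI (2.81 ± 0.40, adjusted p = 0.0127), and Gm26740-201 had 6.10, 6.52 and 7.41 TPM in Comp10_PI against 4.49 and 2.38 TPM in DMSO_PI (1.04 ± 0.57, adjusted p = 0.395). Whether the transcripts of a gene differ in their response was not tested.

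In Cct6a, 3 transcripts were called lower with Compound 10 in stimulated cells (-1.48, -1.38 and -1.51 on the log2 scale). The retained-intron transcript Cct6a-203 was the most abundant, with 122, 175 and 149 TPM in Comp10_PI against 240.1 and 299 TPM in DMSO_PI, and was not called (-0.75 ± 0.18, adjusted p = 0.0606). Dleu2-206 had 17.2, 17.5 and 16.2 TPM in Comp10_PI against 1.08 and 3.77 TPM in DMSO_PI, and Dleu2-211 had 8.32, 8.49 and 6.73 TPM in Comp10_PI against 19.9 and 16.5 TPM in DMSO_PI. Neither Dleu2 transcript passed the test (adjusted p = 0.24 and 0.134). The libraries of the 2 groups did not overlap. This was also so for 47.4% of all tested genes in this comparison, a share of genes and not of transcripts. Zfas1-205 had 8.09, 3.84 and 44.3 TPM in Comp10_PI, and its libraries that stood apart were those that did so for the gene. Neat1-202 was listed at 0 in all 4 DMSO libraries and at 0.397 to 1.77 TPM in the 5 Compound 10 libraries. These levels are low and rest on how kallisto divided reads among the transcripts of Neat1, so the pattern is a description only. With Compound 10 in unstimulated cells, 0 transcripts of members were called higher. The share of all transcripts whose groups do not overlap was not counted.

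**Figure D5:**
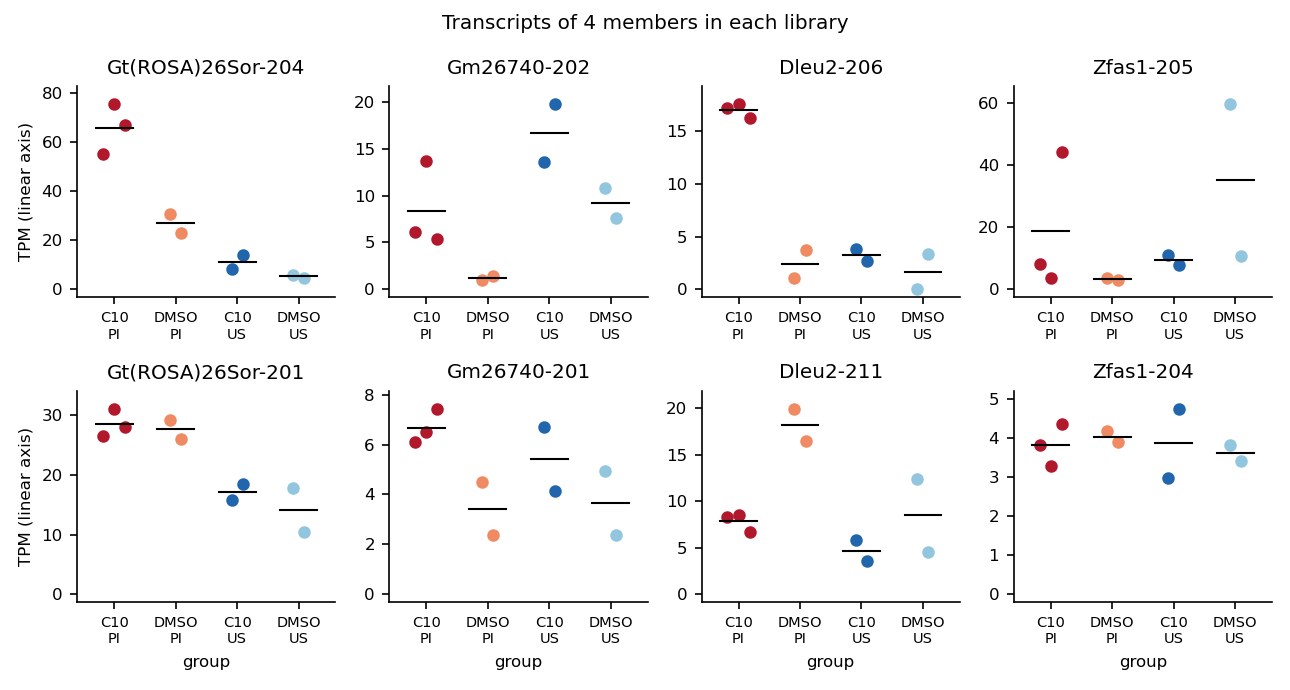
Level in TPM (linear axis, separate scale in each panel) of 2 transcripts each of Gt(ROSA)26Sor, Gm26740, Dleu2 and Zfas1 in every library, with a black line at the group mean and the groups Comp10_PI, DMSO_PI, Comp10_US and DMSO_US from left to right. Gt(ROSA)26Sor-204 lies between 55.1 and 75.2 TPM in Comp10_PI, above both DMSO_PI libraries, and the transcript drawn beneath it overlaps between the same groups.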

How the data were processed

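RNA was sequenced in 9 libraries of splenic CD4+ T cells. The submitters' processing notes name cutadapt, kallisto and the build mm10, with no version. Strand setting and annotation release are not stated in the sources used. The authors deposited 1 table per library with estimated counts, not normalized between libraries, with TPM, scaled within each library, and with lengths and effective lengths of each transcript, per the file headers. Of 109617 transcripts, 108214 matched GENCODE M21 (63964 of them with the same version), and unmatched ones made up 0.542% to 0.829% of a library. Estimated counts were then added up per gene, rounded and fitted with edgeR 4.0.16 (R 4.3.3; TMM, filterByExpr by group, robust quasi-likelihood, 2-sided, all groups in 1 fit, no replicate term). CPM are TMM-scaled, and the fit was tested on simulated data. Precision follows the counts of 10669821 to 21852830 per library, and no interval is given for counting error alone. Alternatives were other scalings and filters, DESeq2 1.42.0, limma 3.58.1 on log2(TPM + 1), effective length as an offset, ribosomal RNA genes left out, the contrast's groups alone, a replicate block, each library left out, other summed-count limits and members with no exon overlap. Added after seeing the data were leaving out both DMSO libraries richest in ribosomal RNA, members with under 50% shared 31-base words, counts summed with the gene that shares most words, and transcripts as features.

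Members are named if they were among the 8 furthest up or down in a comparison (adjusted p under 0.05, mean log2 CPM of at least 3, no overlap between groups), among the 6 with the smallest interaction p or the 12 highest in mean CPM, or on the lists of well-characterised lncRNAs and of miRNA hosts. The list of miRNA hosts held 13 genes, of which 11 were in the tables, 6 were tested and 3 were members, and 2 more members, Gm17494 and Zswim6, hold a miRNA gene by position. Other members named, such as E430024P14Rik, Gm43581, Gm17251, BC002059, AI506816, Gm29371, Gm43305, Gm29084 and 5430405H02Rik, were chosen after their values were seen. Members and lists were chosen with earlier results of these data known. Neighbours are the protein-coding gene that overlaps, starts divergently within 2 kb, or is nearest within 50 kb. Python 3.11.15 with pandas 2.3.3, scipy 1.17.1 and matplotlib 3.10.9 was used for tables and figures. The result for 1 neighbouring gene is not reported here.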

Additional observations from a re-analysis of the deposited data

How the results depend on the processing

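No result reversed. The number of members called with Compound 10 in stimulated cells (17) became 26 with no filter on low counts, 10 with limma on log2(TPM + 1), 31 of 181 with a summed-count limit of 500, 10 of the 42 without exon overlap, and 11 to 19 with single libraries left out. With Compound 10 in unstimulated cells (4) it became 18 with no filter, 9 with the contrast's groups alone, 2 with limma, 7 with DESeq2, 12 with the limit of 500, 2 without exon overlap, 2 among members with under 50% shared words, and 2 to 9 with single libraries left out. With stimulation in DMSO (24) it became 13 with limma, 52 with the limit of 500, 11 without exon overlap, and 20 to 30 with single libraries left out. With stimulation under Compound 10 (25) it became 9 with limma, 46 with the limit of 500, 12 without exon overlap, and 13 to 28 with single libraries left out. The interaction count (0) became 1 with upper-quartile scaling, 5 with no filter, 3 with DESeq2, 1 with the limit of 500, and 0 to 1 with single libraries left out. The lower counts without exon overlap, with under 50% shared words and with fewer libraries, and the higher ones with the limit of 500, follow in part from how many genes or libraries entered; otherwise the cause was not tested. Upper-quartile scaling moved the median log2 fold change of all genes to -0.11 with stimulation in DMSO, and limma on TPM to -0.16 in DMSO and -0.21 under Compound 10. limma on TPM called 977 genes higher and 1671 lower with stimulation in DMSO (2011 and 1931 with edgeR) and 595 higher and 1739 lower under Compound 10 (1541 and 1513). Upper-quartile scaling called 81 genes higher and 66 lower in the interaction (59 and 85 with TMM).

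Nothing in the labels says that replicate numbers pair the libraries, and the correlations of same-numbered libraries were 0.325, 0.225, 0.148, 0.0112, -0.00237 and -0.1 over the 6 pairs of groups, so pairing was not assumed. With a replicate block and without Comp10_PI replicate 3, which shares its number with no other library, 13, 4, 26, 24 and 0 members were called in the order above. Of the 70 calls of single members, 28 held throughout, and 42 were lost under at least 1 alternative: 37 under limma on TPM, 17 each without Comp10_US replicate 1 or 2, 19 without both DMSO libraries richest in ribosomal RNA, and none with DESeq2. With 2 or 3 libraries per group and typical standard errors near 0.3 on the log2 scale, depth and replicate number limit the detection of small changes.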
